A study of Homo sapiens with 4 samples.

Results

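FAS and the genes that carry its death signal were examined in RNA that coprecipitated with the RNA-binding protein TIA1 from KYSE180, an established cell line from a human esophageal squamous cell carcinoma. The group held 9 genes, namely the receptors FAS, TNFRSF10A, TNFRSF10B and TNFRSF1A, the adaptors FADD and RIPK1, the protease CASP8, its inhibitor CFLAR and its substrate BID. Every array probe whose transcript identifier maps to one of these symbols was taken, which gave 15 probes of 50599, and the 9 genes stand among 24154 named genes on the array. Probes that were detected, meaning well above background, in both replicates of TIA1 RIP or of total RNA were kept, and 13 of the 15 probes passed this filter, with at least 1 probe for each of the 9 genes. The 2 probes not kept are both for CFLAR and were not detected on any array.

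Ribonucleoprotein complexes were pulled down with a rabbit antibody against TIA1 from cytoplasmic lysates of KYSE180 cells. RNA of these immunoprecipitates (TIA1 RIP, replicates 1 and 2) and total RNA labelled as input (total RNA, replicates 1 and 2) were hybridized to 4 single-colour Agilent arrays. The labels and methods do not settle whether the total RNA came from cytoplasmic lysate or from whole cells. They also do not settle whether same-numbered arrays share a lysate, so that the ratios are not taken as enrichment over a matched input. All 4 samples come from 1 cell line, so they carry no measure of the variation between tumors, and p-values measure only the spread between these samples, which may be technical. IgG immunoprecipitates were not analysed here, so that binding to TIA1 and nonspecific recovery in the immunoprecipitate cannot be told apart.

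Ligands such as FASL, TRAIL and TNF bind receptors that carry a death domain in their cytoplasmic part. Activated FAS and TRAIL receptors recruit FADD, and FADD in turn recruits procaspase-8, which is activated in this complex and cleaves executioner caspases and BID. CFLAR, also called c-FLIP, occupies the place of caspase-8 in the complex, and RIPK1 directs TNF receptor signalling toward survival or death. TIA1 prefers U-rich RNA. In the nucleus it acts on FAS pre-mRNA, where it favours the inclusion of exon 6, the exon that encodes the transmembrane part of the receptor. In the cytoplasm it binds U-rich and AU-rich stretches of mRNAs.

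Each log2 signal was taken relative to the 75th percentile of its array (called scaled log2 signal below). A second scale subtracted the GAPDH value of the same array, the reference the study used for its enrichment of more than 2.5-fold. That percentile stood at a signal of 1514 and 1271 for TIA1 RIP, 714 for total RNA replicate 1 and 69.9 for total RNA replicate 2. Total RNA replicate 2 also had the lowest share of spots well above background, 32.2% against 45.8% to 48.4% on the others, and no spot was saturated. Across the 20106 kept probes, the SD of the log2 difference between replicates was 0.87 for TIA1 RIP and 2.01 for total RNA. All 7 squamous epithelium markers were detected on all 4 arrays, among them KRT5, TP63 and DSG3. CD3E, COL1A2, COL3A1, PECAM1 and KDR were not detected on both arrays of either group, while CD68 was detected on all 4. PTPRC, COL1A1, VWF and CDH5 had 1 kept probe each, dim on every array (signals up to 441). With 2 arrays per group, precision is low throughout, and in bulk RNA fewer cells with a transcript and less RNA per cell cannot be told apart.

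FAS, the receptor of FASL, was measured by 3 probes, all listed under the same transcript (NM_000043). In the GENCODE annotation of GRCh37 the gene lies on the plus strand of chromosome 10 from 90750414 to 90775542. With 2 of the probes both TIA1 RIP arrays lay above both total RNA arrays, and with the third the groups overlapped. Probes differ in how brightly they hybridize, so that levels are compared only within a probe.

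Probe A_23_P63896, the first, printed in 10 spots, gave signals of 4619 and 4605 in TIA1 RIP replicates 1 and 2, 908 in total RNA replicate 1 and 16.9 in total RNA replicate 2. Its spots agreed closely where the probe was detected, with an SD over spots of 0.088 and 0.065 log2 units in TIA1 RIP and 0.047 in total RNA replicate 1. In total RNA replicate 2, 0 of 9 usable spots were well above background and the SD over spots was 0.63. The scaled log2 signal, with this undetected value included, averaged 1.73 ± 0.18 in the TIA1 RIP replicates (SD, n = 2) and -0.85 ± 1.69 in the total RNA replicates (SD, n = 2). The groups did not overlap, and the TIA1 RIP replicates lay closer to each other than the total RNA replicates did.

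Probe A_33_P3381127, the second and printed once, showed the same order, with signals of 3321 and 3210 in TIA1 RIP, 634 in total RNA replicate 1 and 9.67 in total RNA replicate 2, where it was not well above background. Its scaled log2 signal averaged 1.24 ± 0.14 in the TIA1 RIP replicates (SD, n = 2) and -1.51 ± 1.90 in the total RNA replicates (SD, n = 2). Probe A_33_P3332112, the third and also printed once, had signals of 636 and 652 in TIA1 RIP, 159 in total RNA replicate 1 and 57.0 in total RNA replicate 2. It was the only FAS probe detected on total RNA replicate 2, and its scaled values in TIA1 RIP, -1.25 and -0.96, lay between those of total RNA, -2.17 and -0.29.

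**Figure D1:**
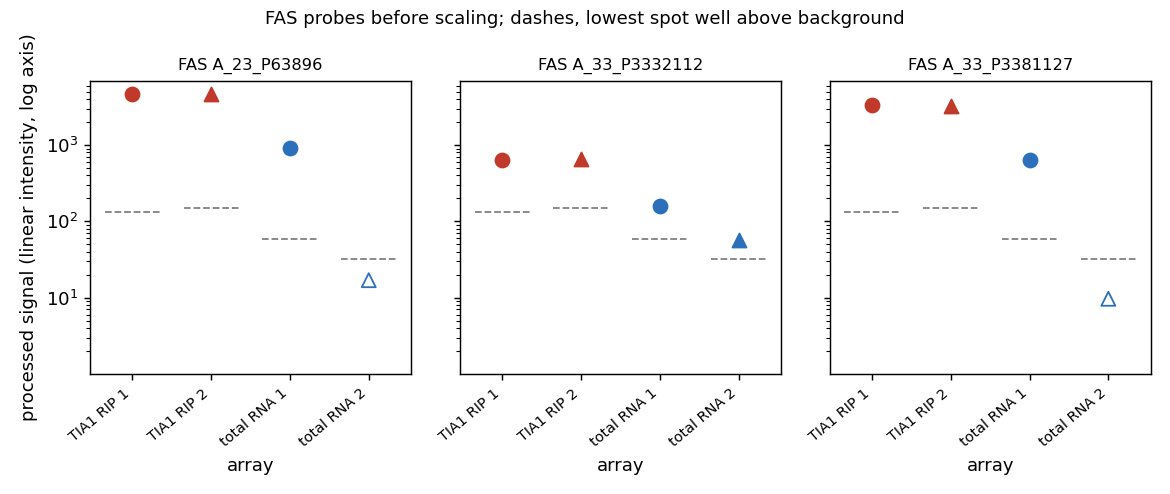
Processed signal (linear intensity on a log axis) of the 3 FAS probes on each array, red for TIA1 RIP and blue for total RNA, with open symbols where a probe was not well above background and dashes at the lowest signal of a spot well above background on that array. The first 2 probes described (left and right) go from 908 and 634 on total RNA replicate 1 to 16.9 and 9.67 on total RNA replicate 2, while the third (middle) goes from 159 to 57.0.

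The log2 ratio, TIA1 RIP over total RNA, was 2.58 (SE 1.00) for A_23_P63896, 2.75 (SE 1.05) for A_33_P3381127 and 0.13 (SE 0.93) for A_33_P3332112. The first 2 of these use a signal on total RNA replicate 2 that was not well above background. After normexp background correction, in place of the processed signal, the 3 ratios were 1.74, 1.58 and -0.017. The median over all kept probes was -0.11. None of the FAS probes passed the test across all probes (adjusted p = 0.745, 0.745 and 0.980 from limma with Benjamini-Hochberg adjustment). The unadjusted p-values from limma were 0.036, 0.035 and 0.896. The test called 0 of 20106 probes (0%) at an adjusted p-value under 0.05, with a lowest adjusted p-value of 0.677. Before adjustment, 231 probes (1.15%) were higher in TIA1 RIP at a p-value under 0.05 and 936 (4.66%) were lower, and the first 2 FAS probes were the only ones of the 13 among them.

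The size of the FAS ratio depended on the total RNA array. Against total RNA replicate 1 alone, the 3 probes gave similar values. On the 75th percentile scale TIA1 RIP replicates 1 and 2 stood 2.40-fold and 2.85-fold above it with A_23_P63896, 2.47-fold and 2.85-fold with A_33_P3381127, and 1.89-fold and 2.31-fold with A_33_P3332112. Against total RNA replicate 2 alone the probes separated. A_23_P63896 was at least 7.21-fold higher and A_33_P3381127 at least 5.10-fold higher in the mean of TIA1 RIP, where the bound sets the undetected signal at the lowest one well above background on that array. A_33_P3332112 stood at 0.514 and 0.629 of its total RNA replicate 2 value. The raw signal on total RNA replicate 2 was at least 28.2-fold and at least 19.7-fold below that on replicate 1 for the first 2 probes, with the same bound, and 2.78-fold below it for the third.

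The fit without total RNA replicate 1 rests on the array on which the first 2 FAS probes were not well above background, so that its ratios for them are taken against a background signal, and the bounds of 7.21-fold and 5.10-fold are what that array supports. In this fit A_23_P63896 (log2 ratio 3.78, adjusted p = 0.0103 from limma) and A_33_P3381127 (4.09, adjusted p = 0.00914 from limma) passed, as did 14.4% of all probes on the higher and 20.1% on the lower side, on the assumption that the lone total RNA array varies as the TIA1 RIP arrays do. The log2 ratio of A_33_P3332112 was then -0.81. Without total RNA replicate 2, the log2 ratios were 1.39, 1.41 and 1.06, and none passed (adjusted p = 0.394, 0.394 and 0.443 from limma). Over all settings tried on this scale, the adjusted p-value from limma reached from 0.0103 to 1.00 for the first probe, from 0.00914 to 1.00 for the second and from 0.042 to 1.00 for the third. Scaled to the E1A spike-ins, control RNAs added at labelling, in place of the 75th percentile, all 3 FAS probes passed (adjusted p = 0.042 from limma), as did 12522 of all probes, since this scaling moves the median log2 ratio of all probes to 4.68.

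Relative to GAPDH, FAS was more than 2.5-fold enriched with each of the 3 probes in all 4 pairs of a TIA1 RIP and a total RNA array. GAPDH, a glycolytic enzyme with an abundant mRNA, had signals of 135771 and 131367 in TIA1 RIP and 145089 and 55429 in total RNA, and its log2 ratio on the 75th percentile scale was -2.06 (SE 0.94, adjusted p = 0.745 from limma). The enrichment of FAS over GAPDH, taken against total RNA replicate 1, was 5.43-fold and 5.60-fold with A_23_P63896, 5.60-fold and 5.59-fold with A_33_P3381127, and 4.28-fold and 4.55-fold with A_33_P3332112. Against total RNA replicate 2 it was 4.55-fold and 4.83-fold with the last, the probe that was detected there. For the undetected probes it was at least 59.4-fold with A_23_P63896 and at least 42.0-fold with A_33_P3381127. A_33_P3332112 thus held its value relative to GAPDH over the 4 pairs, from 4.28-fold to 4.83-fold. Its signal on total RNA replicate 2, 57.0, was however not far above the lowest one well above background there, 32.2.

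The fold on the arrays alone was met by most probes. The study joined it with RIP-seq, which was not analysed here. It also measured FAS mRNA, as a known TIA1 target, by qPCR after RIP in KYSE180 cells, relative to an IgG immunoprecipitate. On the means, 14213 of 20105 probes (70.7%) lay more than 2.5-fold above GAPDH, and so did 11 of the 13 probes of the group. In both TIA1 RIP arrays against total RNA replicate 1 the share of all probes was 31.9%, and 7 of the 13 passed. Against total RNA replicate 2 it was 70% of all probes and 12 of the 13. In all 4 pairs, 26.4% of all probes passed and 7 of the 13, which belong to 5 genes (FAS with 3 probes, TNFRSF10B, TNFRSF1A, CASP8 and CFLAR with 1 of its probes). On this scale limma also called none (0%), with a lowest adjusted p-value of 0.212. At an unadjusted p-value under 0.05 in limma, 4402 probes past the fold (21.9%) remained, 6 of them from the group. When the median of all kept probes took the place of GAPDH, 3 of the 13 passed the fold on the means, as did 2618 of the 20105 probes. The 3 were the first 2 FAS probes and CASP8. None of them was detected on total RNA replicate 2, so that their means use a background signal there.

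**Figure D2:**
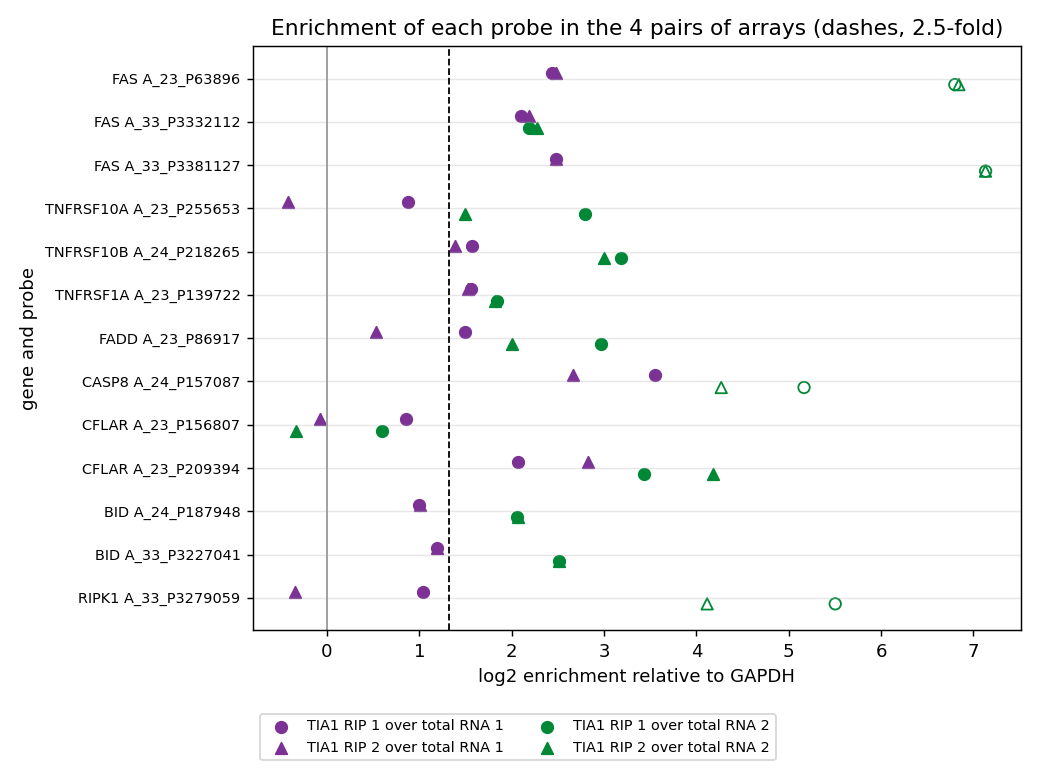
Log2 enrichment relative to GAPDH (horizontal axis) of the 13 kept probes in the 4 pairs of a TIA1 RIP array (circle, replicate 1; triangle, replicate 2) and a total RNA array (purple, replicate 1; green, replicate 2), with open symbols where the probe was not detected on total RNA replicate 2 and a dashed line at 2.5-fold. The 3 FAS probes lie together against total RNA replicate 1, between 4.28-fold and 5.60-fold, and CFLAR A_23_P156807 is the only probe left of the line in all 4 pairs.

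The U-rich stretches of the annotated 3′ UTRs are shown here because U-rich RNA is what TIA1 is known to prefer. The annotated FAS transcript has 9 exons and its 3′ UTR, 1335 nucleotides long, has 33.5% U, 9 UUUUU matches and 7 AUUUA matches (overlapping matches counted, transcript strand). Among the 11534 genes with a kept probe and a 3′ UTR in the annotation, the median U content was 29.4%, 78.7% held UUUUU and 69.9% held AUUUA. The U content of FAS was higher than in 74.4% of them and that of CASP8, 35.2%, higher than in 85.0%, while FADD, with 24.3%, was higher than 24.0%. The window of 30 bases with the most U held 18 U in FAS and 25 in CASP8, 25 in TNFRSF1A, 23 in CFLAR, 22 in TNFRSF10B, 20 in TNFRSF10A, 17 in BID and RIPK1 and 15 in FADD, against a median of 18. CASP8 held 22 UUUUU and 3 AUUUA matches, TNFRSF10B and TNFRSF10A 17 and 16 UUUUU matches, TNFRSF1A 9 UUUUU and no AUUUA, and FADD neither. The windows of FAS, CFLAR and FADD read as follows, 5′ to 3′, with runs of 3 or more U in capitals.
FAS 3′ UTR bases 85 to 114: UUUUUUacuggguacaUUUUaucaUUUauu
CFLAR 3′ UTR bases 1601 to 1630: uuauuaUUUUUaaaUUUUUUUUUUUUaauu
FADD 3′ UTR bases 756 to 785: uccugcaauucuacagUUUcuuacugUUUU
These are matches of letters in an annotated transcript, and the arrays do not show which bases were bound.

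The FAS site best known for TIA1 lies in the intron that follows exon 6. Exon 6 of 9 spans 63 nucleotides, from 90770510 to 90770572 on chromosome 10 of GRCh37. The first bases of the intron after it (chr10:90770573-90770602, plus strand, runs of 3 or more T in capitals) are as follows.
FAS intron after exon 6: gtaagttcttgcTTTgttcaaactgcagat
The position of each probe within the FAS transcript was not analysed here, so that transcripts with and without exon 6 were not told apart.

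**Figure D3:**
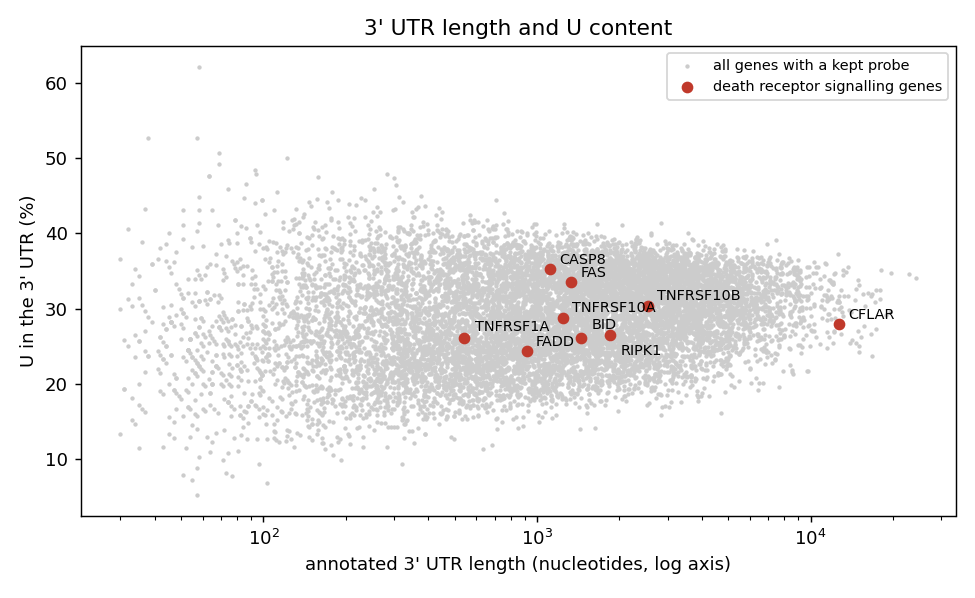
Share of U in the annotated 3′ UTR (%, vertical axis) against its length (nucleotides, log axis) for the 9 genes of the group (red) and all genes with a kept probe (grey). CASP8 (35.2%) and FAS (33.5%) lie highest in the group, FADD (24.3%) lowest, and CFLAR has the longest 3′ UTR, 12714 nucleotides.

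Among the other receptors, TNFRSF10A and TNFRSF10B bind TRAIL and TNFRSF1A binds TNF. They lie on chromosome 8 (23047965 to 23082615 and 22877646 to 22926544, both on the minus strand) and on chromosome 12 (6437923 to 6451280, minus strand). Their U content in the 3′ UTR was 28.8%, 30.4% and 26.1%. The ratio of each was below those of the first 2 FAS probes. TNFRSF10B (NM_003842) had signals of 34861 and 29632 in TIA1 RIP and 12561 and 1567 in total RNA. Its scaled log2 signal averaged 4.53 ± 0.01 in the TIA1 RIP replicates (SD, n = 2) and 4.31 ± 0.25 in the total RNA replicates (SD, n = 2), and both TIA1 RIP arrays lay above both total RNA arrays by a small margin (log2 ratio 0.22, SE 0.78, adjusted p = 0.953 from limma).

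TNFRSF10A (NM_003844) had signals of 2335 and 918 in TIA1 RIP and 1357 and 138 in total RNA. Its scaled log2 signal was 0.63 and -0.47 in TIA1 RIP against 0.93 and 0.98 in total RNA, so that here both TIA1 RIP arrays lay below both total RNA arrays. The log2 ratio was -0.87 (SE 0.83, adjusted p = 0.809 from limma), and 3.92 when scaled to the E1A spike-ins. The TRAIL receptors thus stood on opposite sides of total RNA when scaled to the 75th percentile, but neither ratio passed the test.

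TNFRSF1A (NM_001065), printed in 10 spots, had signals of 6766 and 6414 in TIA1 RIP and 2457 and 769 in total RNA, with all spots well above background on every array. Its scaled log2 signals in TIA1 RIP, 2.16 and 2.34, lay between those of total RNA, 1.78 and 3.46. The log2 ratio was -0.37 (SE 0.90, adjusted p = 0.931 from limma), with the sign turned to 0.47 without total RNA replicate 2, 0.038 after normexp background correction and 4.42 with the E1A scaling. Relative to GAPDH it stood between 2.88-fold and 3.59-fold in the 4 pairs.

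**Figure D4:**
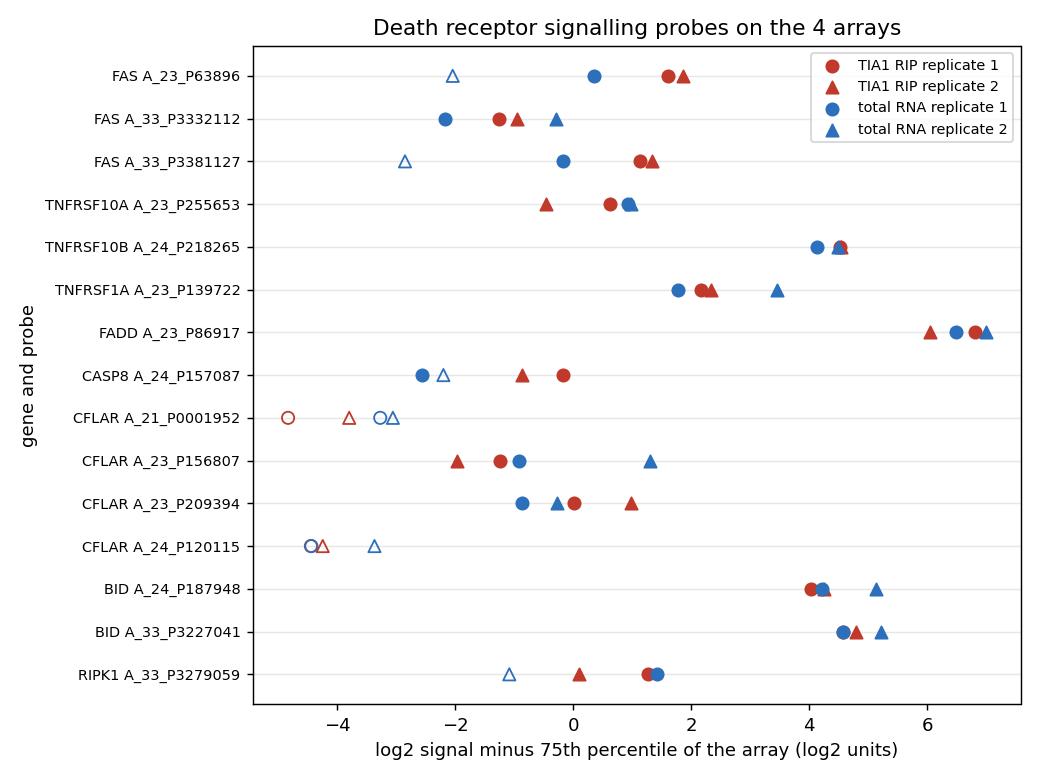
Scaled log2 signal (log2 units, horizontal axis) of the 15 probes on TIA1 RIP (red) and total RNA (blue), circles for replicate 1 and triangles for replicate 2, with open symbols where a probe was not well above background. Positions of different probes are not levels to compare. The first 2 FAS probes (A_23_P63896 and A_33_P3381127), CASP8, CFLAR A_23_P209394 and TNFRSF10B have both red symbols to the right of both blue ones, and TNFRSF10A and CFLAR A_23_P156807 have them to the left among the kept probes.

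FADD and RIPK1, which link the receptors to caspase-8 and to the TNF receptor complex, had TIA1 RIP values that overlapped those of total RNA. FADD (NM_003824, chromosome 11, 70049402 to 70053496, plus strand) had signals of 170035 and 84278 in TIA1 RIP and 64342 and 8889 in total RNA. Its scaled log2 signal averaged 6.43 ± 0.54 in the TIA1 RIP replicates (SD, n = 2) and 6.74 ± 0.35 in the total RNA replicates (SD, n = 2), with overlapping groups and a log2 ratio of -0.31 (SE 0.81, adjusted p = 0.937 from limma). The sign of this ratio turned with quantile normalization (0.66), with normexp (0.14), with the E1A scaling (4.48) and without TIA1 RIP replicate 2 (0.069).

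RIPK1 (NM_003804, chromosome 6, 3064058 to 3115421, plus strand) had signals of 3661 and 1355 in TIA1 RIP, 1899 in total RNA replicate 1 and 32.9 in total RNA replicate 2, where it was not well above background. Both TIA1 RIP arrays lay below total RNA replicate 1, at 0.910 and 0.401 of it, and the mean was at least 3.41-fold above total RNA replicate 2. The log2 ratio of 0.52 (SE 1.07, adjusted p = 0.917 from limma) therefore joins opposite directions, and was -0.73 without total RNA replicate 2 and -0.071 without TIA1 RIP replicate 1.

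CASP8, the initiator caspase of the pathway, lies on chromosome 2 (202098166 to 202226559, plus strand) near CFLAR (201980877 to 202041410, plus strand). Its probe (NM_033355) had signals of 1335 and 694 in TIA1 RIP, 121 in total RNA replicate 1 and 15.2 in total RNA replicate 2, where it was not well above background. The scaled log2 signal averaged -0.53 ± 0.49 in the TIA1 RIP replicates (SD, n = 2) and -2.38 ± 0.25 in the total RNA replicates (SD, n = 2).

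With total RNA replicate 1 as the comparison, where the probe was detected, CASP8 was 5.20-fold and 3.22-fold higher in TIA1 RIP replicates 1 and 2, more than any other probe of the group on the mean (4.09-fold). With replicate 2 it was at least 1.504-fold higher. The log2 ratio was 1.85 (SE 0.80), 0.77 after normexp correction, and it did not pass (adjusted p = 0.745 from limma, unadjusted p = 0.054). Relative to GAPDH, CASP8 was enriched 11.8-fold and 6.32-fold against total RNA replicate 1 and at least 12.4-fold against replicate 2.

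CFLAR, a catalytically inactive relative of caspase-8 that is spliced into long and short forms, had 4 probes under 3 transcript identifiers, and the detected ones went in opposite directions. A_23_P209394 (NM_001127184) had signals of 1531 and 2492 in TIA1 RIP and 389 and 58.0 in total RNA. A_23_P156807 (NM_001202519) had signals of 639 and 323 in TIA1 RIP and 377 and 172 in total RNA. The first lay above both total RNA arrays in both TIA1 RIP arrays and the second below, on the 75th percentile scale.

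The log2 ratio was 1.07 (SE 0.83, adjusted p = 0.772 from limma) for A_23_P209394 and -1.80 (SE 0.99, adjusted p = 0.745 from limma) for A_23_P156807. The latter passed without total RNA replicate 1 (-2.91, adjusted p = 0.0196 from limma, the lowest of a range up to 1.00 over the settings tried, with 20.1% of all probes called lower) and was -0.69 without total RNA replicate 2. Averaging the probes of the gene gave -0.37 and hid the contrast. Relative to GAPDH, A_23_P209394 was 4.21-fold to 18.1-fold enriched in the 4 pairs and A_23_P156807 stood between 0.792-fold and 1.81-fold. A_21_P0001952, under the same identifier as A_23_P156807, and A_24_P120115 (NM_003879) gave 6.75 to 91.2 over the 4 arrays, not well above background on any of them. Which forms of CFLAR each probe can hybridize with was not analysed here.

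BID, the substrate through which caspase-8 engages mitochondria, lies on chromosome 22 (18216904 to 18257536, minus strand) and had 2 probes under the same identifier (NM_197966). They gave nearly the same result. A_24_P187948 had signals of 24866 and 24258 in TIA1 RIP and 13294 and 2445 in total RNA, and A_33_P3227041 had 36143 and 35047 in TIA1 RIP and 16951 and 2585 in total RNA. The log2 ratios were -0.53 (SE 0.81, adjusted p = 0.888 from limma) and -0.21 (SE 0.80, adjusted p = 0.957 from limma), with overlapping groups. Both TIA1 RIP arrays stood between 0.882 and 1.16 of total RNA replicate 1 with either probe. Relative to GAPDH, BID stayed below 2.5-fold against total RNA replicate 1 (2.00-fold to 2.28-fold) and above it against replicate 2 (4.15-fold to 5.72-fold).

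Taking the 13 kept probes together, the median log2 ratio was 0.13 on the 75th percentile scale against -0.11 for all probes, with 7 probes above 0 and 6 below. Both TIA1 RIP arrays lay above both total RNA arrays for 5 of the 13 (17.8% of all probes) and below them for 2 (23.1% of all probes). Both TIA1 RIP arrays were higher than total RNA replicate 1 for 8 of the 13 (41.5% of all probes), and higher than replicate 2 for 6 (36.6% of all probes). The median log2 ratio of the group was 0.40 against total RNA replicate 1 and -0.53 against replicate 2, and that of all probes 0.073 and -0.47. Probes of a gene share their transcript and are not independent, and 3 of the 13 belong to FAS. The first 2 FAS probes, CASP8 and RIPK1 were not detected on total RNA replicate 2 and were kept only through TIA1 RIP. Their log2 ratios, all above 0 (2.58, 2.75, 1.85 and 0.52), enter the median and counts. Of the 9 probes detected on all 4 arrays, only TNFRSF10B (0.22), CFLAR A_23_P209394 (1.07) and FAS A_33_P3332112 (0.13) were above 0, and the others below.

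**Figure D5:**
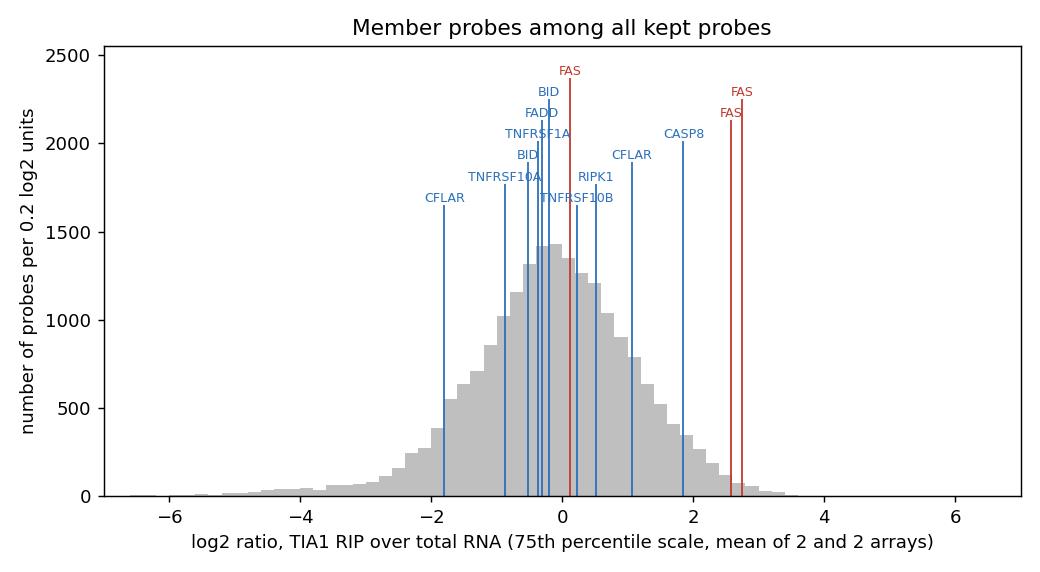
Number of kept probes per 0.2 log2 units (vertical axis) by log2 ratio, TIA1 RIP over total RNA, on the 75th percentile scale, with the 13 probes of the group as vertical lines (red for FAS, blue for the others; line height has no meaning, and the few most extreme probes lie beyond the axis). The first 2 FAS probes, at 2.58 and 2.75, lie to the right and rest on an undetected signal on total RNA replicate 2, and the third, at 0.13, near the centre.

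The other genes of the pathway were given by 7 lists with 52 genes, of which 40 had a kept probe (51 of 76 probes). On the 75th percentile scale 31 of the 51 had a log2 ratio above 0 and 20 below, with a median of 0.20. Only 37 of the 51 were detected on all 4 arrays. None passed the adjusted threshold in limma. Before adjustment, 2 were higher at a p-value under 0.05 and 2 were lower. Both TIA1 RIP arrays lay above both total RNA arrays for 11 (17.8% of all probes) and below them for 12 (23.1% of all probes), and 40 of the 51 were more than 2.5-fold above GAPDH on the means (70.7% of all probes).

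Among the ligands, only TNFSF10, which encodes TRAIL, had a kept probe, and FASLG, TNF, LTA and TNFSF15 did not. TNFSF10 A_23_P121253 had signals of 9753 and 38102 in TIA1 RIP and 1676 and 147 in total RNA, with a log2 ratio of 2.64 (SE 0.97, adjusted p = 0.745 from limma). A second TNFSF10 probe gave 2.01. TNFSF10 was detected on all 4 arrays, and its scaled log2 signals were alike in total RNA (1.23 and 1.07) and apart in TIA1 RIP (2.69 and 4.91). Among the other receptors the log2 ratio ran from -2.21 for TNFRSF25, a death receptor, to 0.90 for TNFRSF10D, a decoy receptor for TRAIL.

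The TNF receptor complex held the lowest ratio of the 51 probes. SHARPIN, a subunit of the ubiquitin ligase that builds linear chains in this complex, gave -3.12 and -3.01 with its 2 probes (adjusted p = 0.745 from limma for both). TAB2, an adaptor of the kinase TAK1, gave 2.56 with A_23_P19702 and 0.22 with its other probe. The mean of TIA1 RIP for A_23_P19702 was 1.61-fold above total RNA replicate 1 and 21.5-fold above replicate 2, where its signal was only 39.2. Of the 18 kept probes of this list, 8 were lower in both TIA1 RIP arrays than in both total RNA arrays (23.1% of all probes) and 3 were higher (17.8% of all probes). The 3 were A_23_P19702 of TAB2, BIRC3 and MAP3K7, and the last 2 were not detected on total RNA replicate 2. With the undetected signal set at the lowest one well above background there, the bound for BIRC3 was only 0.818-fold. Among the other caspases and their substrates, the lowest was 1 of the PARP1 probes with -1.60, while the other kept one gave 0.34.

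In the mitochondrial arm downstream of BID, the ratios ran from -0.36 for HTRA2 to 1.89 for CYCS, which encodes cytochrome c, and all 8 kept probes were more than 2.5-fold above GAPDH on the means, as were 70.7% of all probes. Among modulators of FAS signalling they ran from -0.28 for DAXX to 1.93 for FAIM. MLKL, the executioner of necroptosis, was the only necroptosis gene with a kept probe, since RIPK3 and ZBP1 had none. Its signals were 6903 and 945 in TIA1 RIP, 4702 in total RNA replicate 1 and 27.1 in replicate 2, where it was not detected. Its log2 ratio of 0.20 joins opposite directions, -1.84 against total RNA replicate 1 and 2.25 against the background signal of replicate 2. None of the ratios over the 4 arrays passed the test in limma.

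The profile of FAS A_23_P63896 over the 4 arrays holds an undetected value on total RNA replicate 2, so that likeness to it is uncertain there. With that value taken as measured, among 11314 named probes detected on all 4 arrays, 170 lay within a root mean square difference of 0.5 log2 units of it after each profile was centred on its mean. The nearest were TOR1AIP1 (0.12), RAB6C (0.14), whose sequence is close to that of RAB6A so that the probe may not tell them apart, and FZD6 (0.15). TOR1AIP1 had scaled log2 signals of 3.95 and 3.97 in TIA1 RIP and 2.35 and 0.11 in total RNA. The part of that array in the FAS ratios was not tested beyond leaving it out.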

How the data were processed

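RNA from 2 TIA1 immunoprecipitates and 2 total RNA samples of KYSE180 cells was measured on single-colour arrays. The authors deposited Agilent Feature Extraction 10.7 output (10.7.1.1 per the file headers), whose fluorescence intensity per spot is linear, background-subtracted and not normalized between arrays. Log2 processed signals of unflagged spots were averaged per probe (58717 spots, 299 to 382 flagged per array). A probe counted as detected where a share of at least 0.5 of its spots was well above background. Identifiers were named through RefSeq accessions and GENCODE transcripts on GRCh37 (34510 of 50599 probes). The place of GAPDH as reference and the fold of 2.5 follow the methods of the study, whose further analysis in GeneSpring was not repeated. limma 3.58.1 in R 4.3.3 (lmFit, eBayes) compared TIA1 RIP with total RNA over all kept probes, with Benjamini-Hochberg adjustment at 0.05. It was tested on simulated data with the same spread for every probe and both groups. The arrays differ from this (SD of the log2 difference between replicates 0.87 for TIA1 RIP and 2.01 for total RNA). The simulation therefore does not show how the test behaves with unequal spread. 3′ UTRs are those of each gene's MANE Select or canonical transcript in GENCODE. pandas 2.3.3 and matplotlib 3.10.9 served for tables and figures.

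Named were all probes of the 9 genes, GAPDH, the highest and lowest probe of each other list, and the 3 probes with the profile nearest to A_23_P63896, the FAS probe of highest mean signal. Values of a second probe of such a gene, TNFSF10 and MLKL signals and undetected list members were added after their values were seen. Some items that this rule or the marker lists name are not reported here. The members and lists were chosen with earlier results of these data known. Alternatives covered background correction (normexp, offset 50), scaling, detection filter, gene averaging, reference, replicate number and each array left out. All 4 arrays share 1 slide and 1 scan time, so no slide block could be fitted.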

Additional observations from a re-analysis of the deposited data

How the results depend on the processing

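Over 291 values of the 26 single-probe ratios (13 probes on 2 scales) under other settings, 242 kept their direction and side of the threshold, 22 passed it in the same direction and 27 turned sign. The 242 do not measure stability alone, since the detection filters and the replicate block leave the ratio itself unchanged and cannot turn its sign. The filter for all 4 arrays gave 18 of them, no filter 26 and the block 26. Averaging per gene likewise changes nothing for genes with 1 kept probe. The E1A scaling turned TNFRSF1A (4.42), CFLAR A_23_P156807 (2.99), TNFRSF10A (3.92), FADD (4.48), BID A_24_P187948 (4.26) and BID A_33_P3227041 (4.58). It called 12522 of 20106 probes higher, 10 of the 13 of the group and 36 of the 51 of the other pathway lists. All 13 of the group then lay above each total RNA array, on a scale where the median log2 ratio of all probes was 4.68. The normexp correction turned TNFRSF1A (0.038), FADD (0.14), BID A_33_P3227041 (0.22) and FAS A_33_P3332112 (-0.017), and quantile normalization turned FADD (0.66) and BID A_33_P3227041 (0.22) and left 5 of the group past 2.5-fold above GAPDH against total RNA replicate 2. With the median of kept probes in place of GAPDH, TNFRSF1A (-0.27), CFLAR A_23_P156807 (-1.70), TNFRSF10A (-0.77), FADD (-0.21), BID A_24_P187948 (-0.43) and BID A_33_P3227041 (-0.11) turned. The fold was then passed by 2618 of 20105 probes, 3 of the 13 of the group and 11 of the 51 of the other lists. Averaging per gene turned CFLAR A_23_P209394 (-0.37) and left 9446 genes past the fold.

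The filter for all 4 arrays left 13408 probes, among them 9 of the group and 37 of the other lists. The fold on the means was passed by 8355 of the 13408, by 7 of the 9 and by 26 of the 37. Against total RNA replicate 1, 4 of the 9 passed it in both TIA1 RIP arrays. With no detection filter, 25357 of the 50599 probes on the array passed the fold on the means, and 54 probes were called lower. The cause of these shifts was not tested, except that these filters test fewer or more probes.

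With each array left out in turn, the log2 ratio ranged from -1.21 to 0.47 for TNFRSF1A, from -0.69 to 0.069 for FADD, from -0.53 to 0.11 for BID A_33_P3227041, from -0.73 to 1.77 for RIPK1 and from -0.81 to 1.06 for FAS A_33_P3332112, and relative to GAPDH from -0.21 to 0.73 for CFLAR A_23_P156807. Under the same omissions, the probes called ranged from 0 to 2898 higher and from 0 to 4038 lower, in the group from 0 to 2 higher and from 0 to 1 lower, and in the other lists from 0 to 11 higher and from 0 to 8 lower. The highest of each came without total RNA replicate 1. The probes past the fold over GAPDH ranged from 8563 to 15210, in the group from 7 to 12 and in the other lists from 16 to 42, with the lowest of each without total RNA replicate 2.

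Same-numbered arrays deviated together (r = 0.439 across probes), but 2 pairs do not establish a pairing. A replicate block in limma called 93 probes higher and 553 lower, none of the group. In the other lists it called 1 higher and 2 lower, both SHARPIN (adjusted p = 0.024 and 0.034 from limma). This fit gave the same SE, 0.91, to the probes of the group and to both SHARPIN probes. Its p-values therefore follow the size of the ratio and do not measure the spread of each probe. The signal over background on total RNA replicate 2 limits every ratio of the probes undetected there. In the group these are 2 of FAS, CASP8 and RIPK1, and in the other lists they include MLKL.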
